A study of Mus musculus with 6 samples.

Results

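The genes described here are 10 markers of progenitor-like adventitial fibroblasts: Dpt, Clec3b, Pi16, Ly6a, Cd34, Thy1, Ly6c1, Dpp4, Pdpn and Fap. Each was looked up by its symbol in the deposited count table of 14831 genes. Of the 10, 6 had a row, and Ly6c1, Dpp4, Pdpn and Fap, which had none under their symbol or Ensembl identifier, were not analysed here. The cells are immortalized mouse pancreatic fibroblasts of mixed strain, taken from adult mice with floxed Gli alleles and grown to confluence, with each library from its own well. The 3 libraries of 1 group carry the genotype label WT, and the methods describe such control cells as infected with a GFP adenovirus and a dsRed lentivirus. The 3 libraries of the other group carry the label Gli2-/-;Gli3-/- (KO), and the methods describe such cells as infected with a GFP adenovirus and a Cre adenovirus. Both groups are cultured cells isolated by flow cytometry after infection, away from the tissue in which these markers are usually read, and the spread between wells is that of culture and sequencing, not of lines made separately. Total counts were 31728420 to 33905521 in WT-labelled wells and from 32781730 to 41035931 in the KO-labelled wells.

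Adventitial fibroblasts lie in the outer coat of vessels and ducts. They are known across organs as a fibroblast state with progenitor features, in which secreted matrix and plasma-binding proteins (Dpt, Clec3b, Pi16) are made together with surface antigens (Ly6a, Cd34, Thy1, Dpp4). Gli2 and Gli3 are transcription factors through which Hedgehog signals act, and Gli1 is a target of that pathway.

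The targeted genes were read first. Gli2 had 809, 944 and 868 counts in WT-labelled wells and 1932, 2316 and 1926 in the KO-labelled wells, and Gli3 had 392, 416 and 398 against 1434, 1637 and 1404. Both were higher in the KO-labelled wells, by 1.05 (standard error, SE, 0.04) and 1.71 (SE 0.05) on the log2 scale, which goes against the labels as read from gene counts. Counts over a whole gene also take in exons outside a deleted part, so they cannot show whether the deletion was made. The paper reports that Gli deletion in its fibroblast lines was checked by qPCR and western blot. Gli1, the pathway target, was lower in the KO-labelled wells by 2.40 on the log2 scale (SE 0.31), from 40, 50 and 37 counts to 4, 10 and 13. The paper describes Gli1 as kept after Gli2 and Gli3 loss in mice, and as kept at a baseline level in such fibroblasts. Its fall alone thus cannot decide whether the labels hold. The paper also reports that Gli2/Gli3 KO fibroblasts did not respond to Hedgehog stimulation, which was not measured here. From RNA sequencing of Gli2/Gli3 KO fibroblasts, the paper reports more Ccl5 and Cxcl10 and less Il6 and Il11. It shows qPCR of Ccl5, Il6 and Il11 as well, and these genes were not read here. Whether the labels match the cells was not tested. The group names are therefore used as labels alone, and every direction below rests on those labels.

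The promoter windows of 3 members are shown because these were the tested members for which a window was at hand, 2 of them lower in the KO-labelled wells and Cd34 higher. They are RefSeq windows on GRCm38.p6, each 300 bases with 250 before and 50 after the annotated start, read 5′ to 3′ on the plus strand: Dpt at chr1:164796413-164796712, Pi16 at chr17:29318632-29318931 and Cd34 at chr1:194938571-194938870. The Pi16 window lies wholly inside the gene as placed by GENCODE M21, which starts Pi16 at 29317680, so the annotations differ on its start. Capitals mark the letters TATAAA, the core of a TATA box.
Dpt: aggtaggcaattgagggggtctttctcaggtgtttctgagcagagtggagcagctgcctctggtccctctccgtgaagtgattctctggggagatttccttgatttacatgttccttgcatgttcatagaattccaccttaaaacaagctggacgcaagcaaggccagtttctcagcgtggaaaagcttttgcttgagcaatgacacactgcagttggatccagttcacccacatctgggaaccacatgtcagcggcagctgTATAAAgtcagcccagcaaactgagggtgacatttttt
Pi16: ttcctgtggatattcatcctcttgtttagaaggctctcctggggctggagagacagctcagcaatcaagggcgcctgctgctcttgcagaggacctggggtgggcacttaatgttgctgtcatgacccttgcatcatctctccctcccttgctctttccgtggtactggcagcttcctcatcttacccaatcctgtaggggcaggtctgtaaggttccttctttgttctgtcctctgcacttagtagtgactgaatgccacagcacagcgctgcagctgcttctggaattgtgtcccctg
Cd34: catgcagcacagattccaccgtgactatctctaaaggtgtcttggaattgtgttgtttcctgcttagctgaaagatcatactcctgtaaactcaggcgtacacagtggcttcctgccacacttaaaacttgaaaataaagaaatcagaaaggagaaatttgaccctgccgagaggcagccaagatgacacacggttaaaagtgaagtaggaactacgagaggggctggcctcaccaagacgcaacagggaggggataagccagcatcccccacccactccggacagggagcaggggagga
TATAAA on the given strand was in the Dpt window, beginning 13 bases past the annotated start, and was in 8.32% of 32851 promoter windows of this length. The letters GACCACCCA, the core of the site that GLI factors bind, were searched on both strands and were in none of the 3 windows and in 0.253% of all windows. GC content was 48.7% in the Dpt window, 53.3% in that of Pi16 and 50% in that of Cd34, against a median of 52.7%. The windows hold 4, 3 and 7 CpG sites, in that order, against a median of 7. A match of letters is a description, not a site of binding.

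The secreted markers were lower in the KO-labelled wells, Ly6a was lower by a smaller amount, and Cd34 was higher. Of the 6 members with a row, 5 passed the filter on low counts and were tested, and all 5 were called, meaning an adjusted p under 0.05 with a 1.5-fold or larger difference. Among 14289 genes tested, 17.7% were called. Of the 5, Dpt, Clec3b, Pi16 and Ly6a were lower in the KO-labelled wells, a direction in which 6.1% of all genes tested were called. Cd34 was higher, as were 11.6% of all genes. With no fold limit 58.7% of all genes tested passed, and 64.2% had groups that did not overlap, as had all 6 members with a row. The median log2 fold change was -2.43 over the 5 and 0.00 over all genes. The members were chosen with earlier results of these data known, so the shares over all genes are a background and not a test. Adjusted p values are Benjamini-Hochberg values over all genes tested, from the quasi-likelihood test of edgeR, and fold changes are those of labelled KO over labelled WT. In bulk RNA, fewer cells that express a gene and less RNA of it in each cell cannot be told apart.

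**Figure D1:**
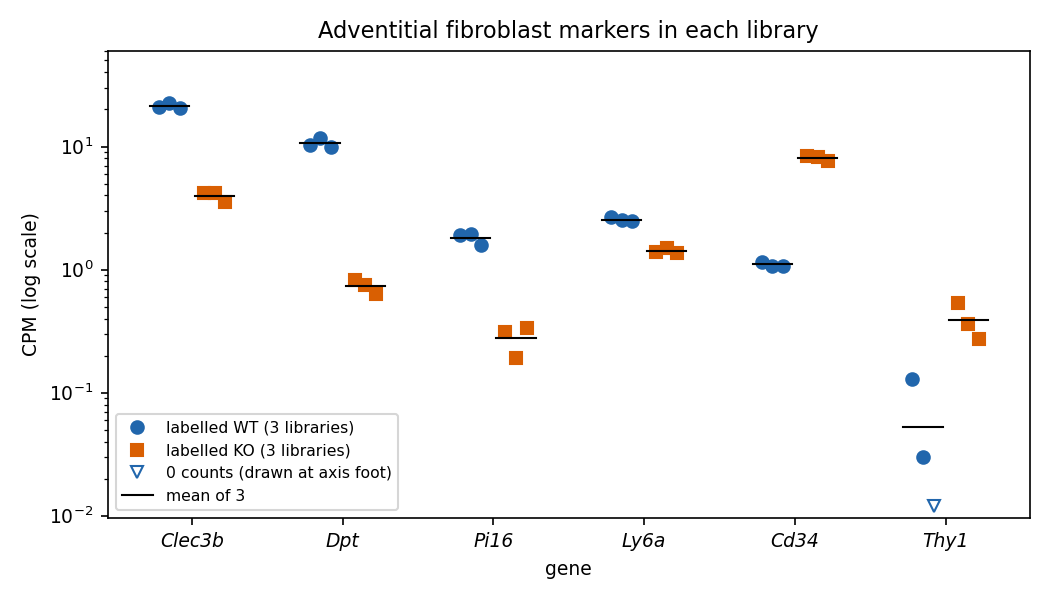
CPM (log axis) of the 6 markers with a row, with 1 point for each library, circles for the 3 labelled WT and squares for the 3 labelled KO, a line at the mean of 3 and an open triangle at the foot of the axis for a count of 0. Clec3b, Dpt, Pi16 and Ly6a sit lower in every KO-labelled well, whereas Cd34 and Thy1 sit higher, and no gene's groups overlap.

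Dpt, dermatopontin, is a small matrix protein that binds decorin and helps to assemble collagen fibrils. Its gene lies on chromosome 1 from 164796644 to 164824266 on the plus strand (GENCODE M21 on GRCm38, used for all gene positions). It had 321, 393 and 320 counts in WT-labelled wells and 29, 31 and 21 in the KO-labelled wells, which is 10.7 ± 0.93 and 0.733 ± 0.0919 CPM (counts scaled to library size; SD, n = 3 each). The highest KO-labelled well, at 0.819 CPM, was far below the lowest labelled WT, at 10.0 CPM. The log2 fold change was -3.85 (SE 0.13, 95% interval -4.14 to -3.57, adjusted p = 9.03e-11), or 14.4-fold lower, the largest change among the members tested.

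Clec3b, tetranectin, is a secreted C-type lectin-like protein that binds a kringle of plasminogen. It lies on chromosome 9 from 123150946 to 123157432 on the plus strand and was the most abundant member per exon length in both groups. The WT-labelled wells had 661, 753 and 662 counts and the KO-labelled wells 148, 174 and 116, that is 21.4 ± 0.922 and 3.96 ± 0.383 CPM (SD, n = 3 each). Within each group the libraries lay close together, with a coefficient of variation of 4.3% and 9.68%, and the groups did not overlap. The log2 fold change was -2.43 (SE 0.08, 95% interval -2.60 to -2.26, adjusted p = 4.97e-11), or 5.39-fold lower.

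Pi16, peptidase inhibitor 16, is a CAP-domain protein used to mark universal fibroblasts shared by many organs. It lies on chromosome 17 from 29317680 to 29330593 on the plus strand and was scarce, with 60, 65 and 50 counts in WT-labelled wells and 11, 8 and 11 in the KO-labelled wells. Its levels were 1.81 ± 0.209 and 0.279 ± 0.0759 CPM (SD, n = 3 each). The libraries labelled KO had a coefficient of variation of 27.2% at these low counts, and all of them remained under the lowest WT-labelled well, at 1.57 CPM. The log2 fold change was -2.71 (SE 0.24, 95% interval -3.24 to -2.19, adjusted p = 8.31e-07), or 6.55-fold lower. Of its exon bases, 222 overlap AC162182.1 on the other strand, and whether reads were counted by strand is not given in the sources used here.

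Among the surface antigens, Ly6a encodes Sca-1, a GPI-anchored protein of the Ly6 family and a marker of mouse stem and progenitor cells. It lies on chromosome 15 from 74994877 to 74998031 on the minus strand. It had 84, 84 and 79 counts in WT-labelled wells and 49, 62 and 45 in the KO-labelled wells, that is 2.55 ± 0.11 and 1.41 ± 0.0668 CPM (SD, n = 3 each). The groups did not overlap, with 2.47 CPM in the lowest WT-labelled well and 1.49 in the highest labelled KO. The log2 fold change was -0.85 (SE 0.14, 95% interval -1.15 to -0.55, adjusted p = 1.61e-04), or 1.80-fold lower, the smallest change among the members tested. Ly6a shares sequence with its neighbours in the Ly6 cluster. Of the 1297 words of 50 letters in its transcripts, 246 (19%) also occur in transcripts of other genes, 195 of them in Ly6c1, so its counts are uncertain as far as the counting of reads with several matches could move them.

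Cd34 encodes a sialomucin of the cell surface found on blood-forming progenitors, vessel endothelium and resident fibroblasts. It lies on chromosome 1 from 194938819 to 194961279 on the plus strand. It had 36, 36 and 34 counts in WT-labelled wells and 295, 345 and 254 in the KO-labelled wells, that is 1.10 ± 0.0457 and 8.10 ± 0.353 CPM (SD, n = 3 each). The lowest KO-labelled well, at 7.69 CPM, was far above the highest labelled WT, at 1.15 CPM. The log2 fold change was 2.88 (SE 0.11, 95% interval 2.64 to 3.13, adjusted p = 3.50e-10), or 7.38-fold higher. Of its exon bases, 148 overlap Gm16897 on the other strand, a gene with no row here.

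Thy1 encodes a GPI-anchored surface protein of fibroblasts, neurons and T cells that binds integrins. It lies on chromosome 9 from 44043384 to 44048579 on the plus strand and was at the edge of detection, with 4, 1 and 0 counts in WT-labelled wells and 19, 15 and 9 in the KO-labelled wells. It did not pass the filter on low counts. Summed over the libraries of a group, 5 and 43 counts give a CPM ratio of 7.56 (95% exact interval 3 to 24.5, which covers counting error only). The value rests in part on replicate 1 labelled WT: without it, 1 count remained in the other libraries labelled WT. Against a floor of 3 counts in each of those libraries, the mean CPM of Thy1 in KO-labelled wells was at least 4.25-fold higher. That bound is on the mean and not on each well. An exact permutation test of 3 against 3 libraries cannot give a two-sided p under 0.1.

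**Figure D2:**
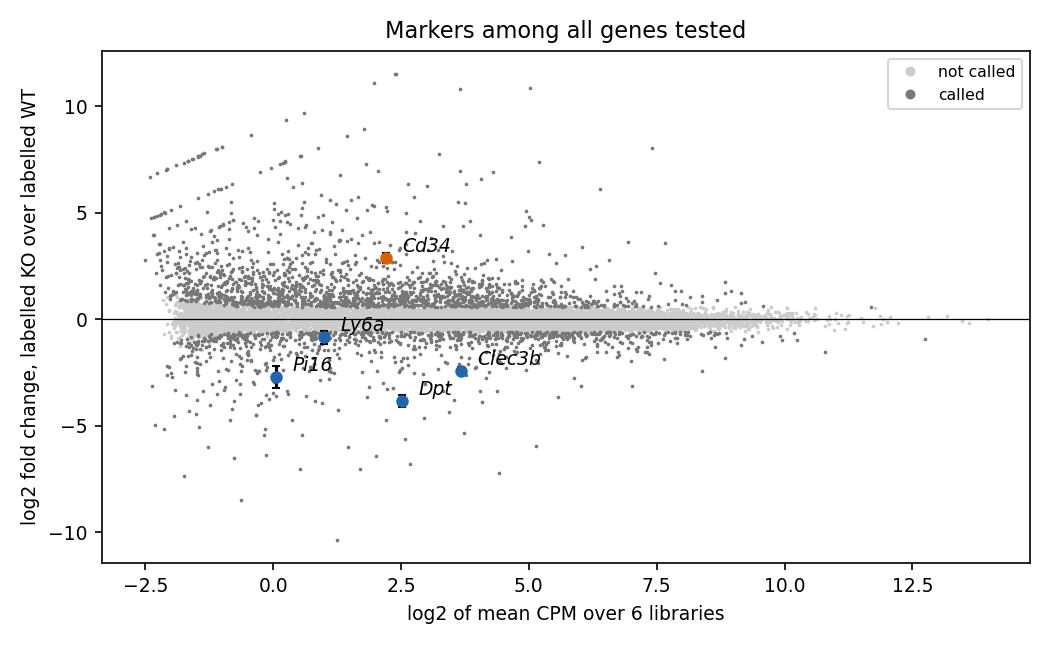
Log2 fold change of labelled KO over labelled WT against the log2 of mean CPM over 6 libraries for the 14289 genes tested, light grey where not called and dark grey where called, with the 5 tested markers in colour and bars for their 95% intervals. Dpt, Pi16, Clec3b and Ly6a lie under 0 and Cd34 lies above it, all outside the light grey band.

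Levels of different genes were compared only per length, as CPM per kilobase of exon (RPKM). In the WT-labelled wells the order was Clec3b (21.6 ± 0.93 RPKM), Dpt (6.19 ± 0.54), Ly6a (2.12 ± 0.0916), Pi16 (0.284 ± 0.0328), Cd34 (0.150 ± 0.00628) and Thy1 (0.0175 ± 0.0223; SD, n = 3). No neighbours in that order overlapped in their ranges over 3 libraries. In the KO-labelled wells the order was Clec3b (3.99 ± 0.386 RPKM), Ly6a (1.17 ± 0.0554), Cd34 (1.11 ± 0.0485), Dpt (0.425 ± 0.0533), Thy1 (0.130 ± 0.0449) and Pi16 (0.0438 ± 0.0119; SD, n = 3). The ranges of Ly6a (1.13 to 1.23 RPKM) and Cd34 (1.06 to 1.14 RPKM) overlapped, and the other neighbours were apart. Dpt thus went from the second to the fourth place and Cd34 from the fifth to a place shared with Ly6a.

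Among all genes tested, the RPKM of Clec3b stood at percentile 83.8 in WT-labelled wells and 44.2 in the KO-labelled wells. Dpt stood at percentile 54.7 and 13.1, and Pi16 at 11.2 and 0.686. Only genes past the filter on low counts were ranked, so genes low in both groups are not among them. The place of Pi16 in the KO-labelled wells, at 11, 8 and 11 counts, therefore depends on that filter. Ly6a went from percentile 33.4 to 23.8, whereas Cd34 went from 6.65 to 23.2. For scale, Col1a1, the main chain of type I collagen, was at 2435 ± 133 and 2455 ± 62.2 RPKM, and Pdgfra, a receptor that marks fibroblasts, at 30.1 ± 0.774 and 16.2 ± 0.484 RPKM (SD, n = 3 each). Both were above every member per length in either group. Other fibroblast genes were not: Lum (lumican), a relative of decorin, had 4.77 and 0.0979 RPKM, under Clec3b and Dpt in both groups.

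**Figure D3:**
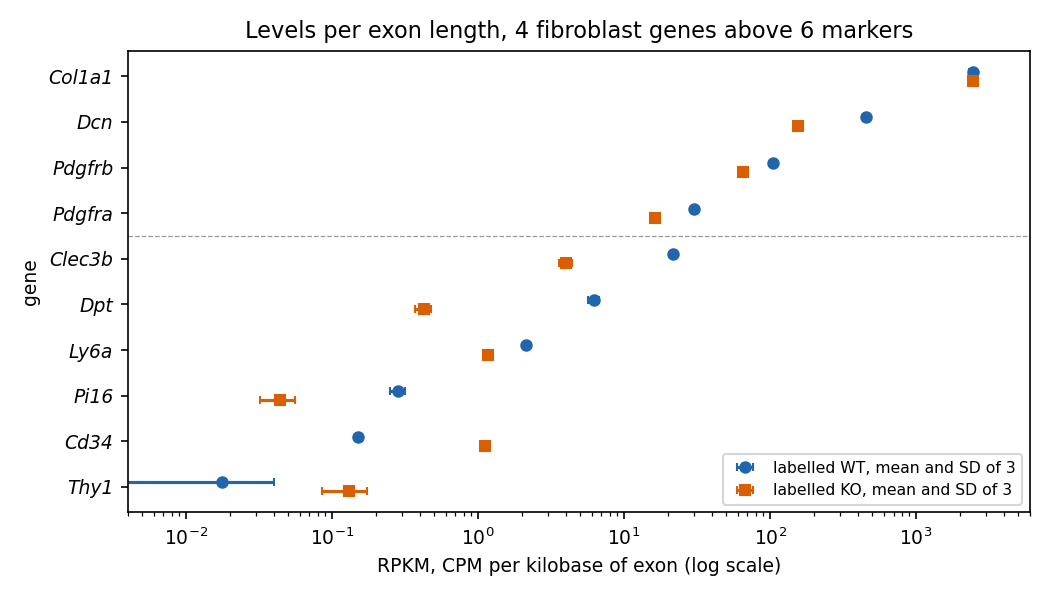
RPKM (log axis) of 4 fibroblast genes above the dashed line and the 6 markers under it, with the mean and SD of 3 libraries labelled WT (circles) or KO (squares). Cd34 and Ly6a lie at 1.11 and 1.17 RPKM in the KO-labelled wells, and the lower bar of Thy1 in the WT-labelled wells runs past the axis because its SD exceeds its mean.

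Genes of the members' families and binding partners, a list of 35, were read beside them. Of these, 27 had a row and were tested, 6 rose, 4 fell and 17 were not called, with a median log2 fold change of 0.13. For this and each later list, the background is that of all genes tested, with 11.6% called higher and 6.1% called lower. The lists too were chosen with earlier results of these data known. The relatives of Cd34 both rose: Podxl (podocalyxin) by 0.60 (SE 0.11, adjusted p = 3.59e-04) and Podxl2 (endoglycan) by 0.82 (SE 0.06, adjusted p = 1.28e-07) on the log2 scale. Their changes were small beside the 2.88 of Cd34, and both had more RNA per length than Cd34 in either group, at 1.31 and 2.18 RPKM in WT-labelled wells and 1.98 and 3.84 in the KO-labelled wells. Ezr, the ezrin that links membrane mucins such as Pdpn to actin, rose from 24.2 ± 0.331 to 166 ± 5.37 CPM (SD, n = 3 each), with a log2 fold change of 2.77 (SE 0.04, adjusted p = 2.64e-14). Its relatives Msn, with -0.37, and Rdx, with 0.18, were under the fold limit.

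For the secreted members, Dcn, the decorin that Dpt binds, fell from 2643 ± 117 to 905 ± 6.95 CPM (SD, n = 3 each), with a log2 fold change of -1.55 (SE 0.03, adjusted p = 1.51e-12). Fn1, the fibronectin that Dpt also binds, had -0.11 and was not called. Clec11a, a secreted C-type lectin-like growth factor related in fold to Clec3b, fell by 1.25 on the log2 scale (SE 0.10, adjusted p = 2.89e-07). Plaur, the urokinase receptor of the plasminogen system, rose by 1.10 (SE 0.08, adjusted p = 8.67e-08). Of the CAP-domain relatives of Pi16, Crispld2 was called at -0.78 with groups that overlapped (adjusted p = 0.0248), and R3hdml (-0.51), Glipr1 (0.80) and Glipr2 (0.02) were not called.

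Of the integrin chains to which Thy1 can bind, Itgav rose by 1.25 (SE 0.03, adjusted p = 2.48e-12), Itgb3 fell by 0.80 (SE 0.05, adjusted p = 1.50e-08) and Itgb5 had -0.16 and was not called, on the log2 scale. For Dpp4, whose own gene was not analysed here, the related peptidases Dpp8, Dpp9 and Prep had log2 fold changes of 0.16, 0.01 and 0.43 and were not called. Ada, the enzyme that docks on Dpp4, had 0.56, and Cxcl12, a chemokine that Dpp4 cuts, had 0.09, and neither was called. Adora2a, an adenosine receptor, was called at 1.05 (adjusted p = 4.23e-04). The genes of GPI attachment, which Ly6a and Thy1 both need, had 0.13 for Pigk and 0.16 for Gpaa1, under the fold limit.

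In the Ly6 cluster on chromosome 15, 5 of 20 genes had a row and 4 were tested, with 1 higher, 1 lower and a median log2 fold change of -0.08. Ly6a was the one that fell. Ly6e, which is more abundant, had 34.2 ± 0.777 and 33.6 ± 0.883 CPM (SD, n = 3 each) and a log2 fold change of -0.02 (95% interval -0.11 to 0.07). Lynx1, a modulator of acetylcholine receptors, rose from 2.92 ± 0.114 to 14.8 ± 0.986 CPM, a log2 fold change of 2.34 (SE 0.09, adjusted p = 2.35e-10). Them6 had -0.15 and was not called, and Psca, with 4 to 18 counts in each library, was not tested. The genes of this cluster with a row therefore moved in both directions.

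Other genes reported for adventitial or universal fibroblasts, a list of 40 beside the members, moved both ways. Of 32 with a row, all tested, 10 rose, 11 fell and 11 were not called, and the median log2 fold change was 0.10. Col14a1, a collagen that decorates fibrils, fell from 14.9 ± 0.799 to 0.596 ± 0.291 CPM (log2 fold change -4.65, SE 0.16, adjusted p = 1.27e-10). Has1, a hyaluronan synthase, fell by 3.18 (SE 0.42, adjusted p = 3.23e-05), and Gli1, the Hedgehog target, fell by 2.40 on the log2 scale (SE 0.31, adjusted p = 2.30e-05), with 40, 50 and 37 counts in WT-labelled wells and 4, 10 and 13 in the KO-labelled wells.

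In the other direction, Nt5e, the ectonucleotidase CD73, had 3, 2 and 6 counts in WT-labelled wells and 220, 269 and 200 in the KO-labelled wells (log2 fold change 5.74, SE 0.22, adjusted p = 2.35e-10). Tnfaip6, a hyaluronan-binding protein, rose by 3.16 (SE 0.27, adjusted p = 6.77e-07), and Col15a1, a basement membrane collagen, by 2.91 on the log2 scale (SE 0.36, adjusted p = 1.65e-05), both from single-digit counts. Cd34 was thus not the single gene described for this state with more RNA in the KO-labelled wells, nor were the secreted members the only ones with less. Creb5 had at most 2 counts in each WT-labelled well and 14 to 15 in the KO-labelled wells. Its mean CPM in KO-labelled wells was at least 4.22-fold higher against the floor of 3 counts in each library. The list's median with Creb5 at that bound was 0.10 as well.

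**Figure D4:**
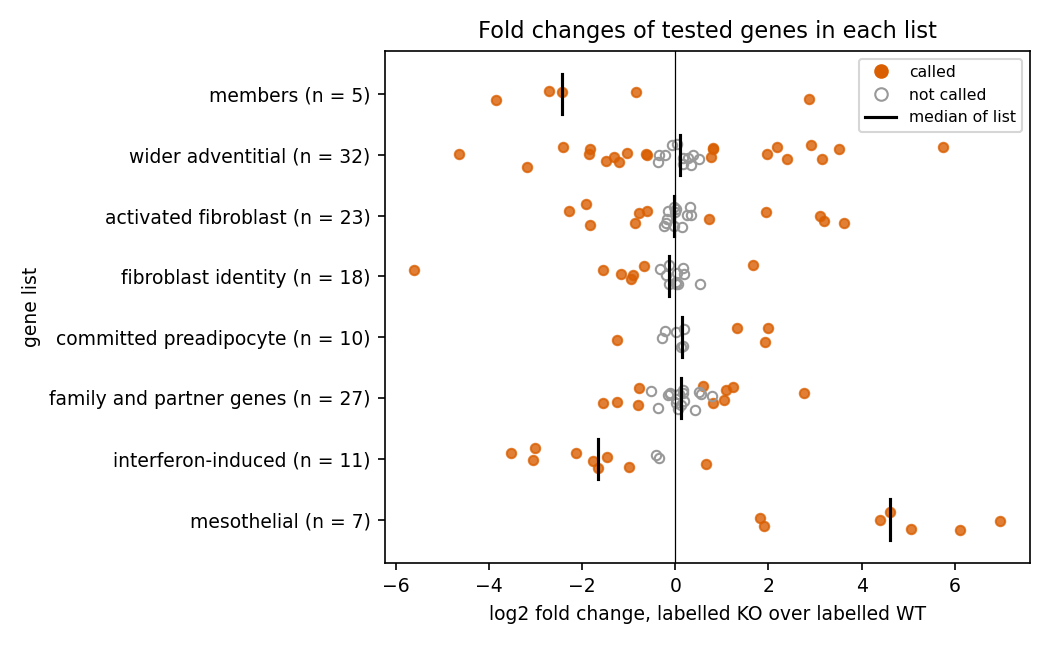
Log2 fold changes of labelled KO over labelled WT for the tested genes of 8 lists, with 1 point for each gene, filled where called and open where not, and a line at the list's median. The medians are -2.43 for the members, 0.10 for the wider adventitial list, -1.66 for interferon-induced genes and 4.62 for mesothelial genes.

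The label of the cells was checked against general fibroblast genes. Of 20 listed, 18 had a row and were tested, 1 rose, 6 fell and 11 were not called, with a median log2 fold change of -0.13. Their summed level was 60145 to 62878 CPM in WT-labelled wells and 53968 to 55975 in the KO-labelled wells. Most of that sum was Col1a1, Col1a2 and Col3a1, so it says little of the scarcer genes. Their means were 15982, 13233 and 8970 CPM in WT-labelled wells and 16113, 11589 and 4678 in the KO-labelled wells. Lum fell by 5.60 on the log2 scale (SE 0.16, adjusted p = 1.81e-11), from 349, 411 and 370 counts to 12, 7 and 7. Loxl1, which crosslinks elastin, fell by 1.16 (SE 0.04, adjusted p = 1.49e-10), and S100a4, a calcium-binding protein, rose by 1.67 (SE 0.11, adjusted p = 6.53e-08). Col1a1 had a log2 fold change of 0.01 (95% interval -0.07 to 0.09).

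Pdpn and Fap are also used as markers of activated fibroblasts, so 25 other genes of that state were read. Of 23 with a row, all tested, 5 rose, 6 fell and 12 were not called, with a median log2 fold change of -0.02. Itga11, a collagen-binding integrin, rose from 18.3 ± 0.789 to 226 ± 3.19 CPM (log2 fold change 3.63, SE 0.04, adjusted p = 3.75e-15). Col10a1 rose by 3.20 (SE 0.36, adjusted p = 7.64e-06) and Col11a1 by 3.11 (SE 0.39, adjusted p = 1.83e-05), both from single-digit counts. Myl9, a myosin light chain, fell by 2.28 (SE 0.08, adjusted p = 9.31e-11), Thbs2 by 1.92 (SE 0.16, adjusted p = 4.69e-07) and Col8a1 by 1.83 (SE 0.03, adjusted p = 1.53e-13). Acta2, the smooth muscle actin of myofibroblasts, had 0.01 (95% interval -0.07 to 0.08).

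In some tissues cells with Dpp4 and Pi16 give rise to committed preadipocytes, for which 12 genes were listed. Of 10 with a row, all tested, 3 rose, 1 fell and 6 were not called, with a median log2 fold change of 0.15. Dlk1, a preadipocyte surface protein, rose by 2.00 (SE 0.37, adjusted p = 4.84e-04), from 3, 4 and 9 counts to 27, 23 and 24. Pdgfrl rose by 1.32 (SE 0.11, adjusted p = 5.57e-07), whereas Clec11a is the one that fell. Pparg, the regulator of fat cell formation, had 0.12 (95% interval -0.02 to 0.27) and was not called.

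Ly6a is known to respond to interferon, and interferon-induced genes were lower in the same libraries. Of 12 listed, 11 had a row and were tested, 8 fell, 1 rose and 2 were not called, with a median log2 fold change of -1.66. Ifi44 fell by 3.53 (SE 0.45, adjusted p = 2.36e-05), Oasl2 by 3.06 (SE 0.28, adjusted p = 9.52e-07) and Usp18 by 3.01 (SE 0.23, adjusted p = 2.25e-07). Psmb8, an immunoproteasome subunit, rose by 0.65 (SE 0.24, adjusted p = 0.0314). The summed level of the list was 598 to 727 CPM in WT-labelled wells and 410 to 421 in the KO-labelled wells. Most of it was B2m, at 473 ± 33.5 and 356 ± 3.79 CPM (SD, n = 3 each), which was not called at -0.41. The part of these genes in the change of Ly6a was not tested.

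Markers of other cell types moved as well. Of 8 mesothelial genes, 7 had a row and all 7 rose, with a median log2 fold change of 4.62 and a summed level of 24.5 to 27.7 CPM in WT-labelled wells and 357 to 362 in the KO-labelled wells. Msln (mesothelin) rose from 77, 91 and 62 counts to 5949, 6904 and 5392 (log2 fold change 6.12, SE 0.06, adjusted p = 3.75e-15), and Bnc1 by 5.06 (SE 0.07, adjusted p = 4.74e-14). Gpm6a had at most 3 counts in each WT-labelled well. Its mean CPM in the KO-labelled wells was at least 88.5-fold higher against the floor of 3 counts in each library. The median with Gpm6a at that bound was 4.62. The part of the mesothelial genes in the results of the members was not tested.

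Cd34 also marks endothelium, of which 4 of 14 genes had a row and were tested. Flt4 rose by 2.61 (SE 0.22, adjusted p = 5.47e-07) and Egfl7 by 2.20 (SE 0.19, adjusted p = 6.60e-07), Vwf and Esam were not called, and the median was 1.26. The summed level was 2.49 to 3.67 CPM in WT-labelled wells and 7.17 to 7.54 in the KO-labelled wells, and the defining genes Pecam1, Cdh5 and Kdr had no row. Of 12 haematopoietic genes, 4 had a row and 0 were called by edgeR, DESeq2 or limma. Lyz2 alone of the 4 had an adjusted p under 0.05 (0.0161, edgeR's quasi-likelihood test). Its log2 fold change of -0.17 was under the fold limit. The median of the 4 was -0.19 and their summed level 39.8 to 45.9 CPM against 38.3 to 40.1, and Ptprc had no row. Most of that sum was Lyz2, with a mean of 41.1 CPM in WT-labelled wells and 36.6 in the KO-labelled wells.

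Of 12 epithelial genes, 4 had a row and 3 were tested, with 2 higher (Krt7 by 2.40, SE 0.07, adjusted p = 3.35e-11, and Cdh1 by 1.08), a median of 1.08 and a summed level of 12.8 to 13.8 CPM against 29.5 to 30.4. Epcam had no row. Of 9 pericyte and smooth muscle genes, 2 had a row and were tested, and Mcam rose by 2.52 (SE 0.09, adjusted p = 9.22e-11) whereas Notch3 had -0.06. The median was 1.23 and the summed level 10.1 to 11.2 CPM against 25.4 to 28.7, and Rgs5 had no row. The part of these cell types in the results of the members was not tested.

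For the 3 called members with the highest mean CPM, the genes whose values over 6 libraries lay closest were taken by the root mean square distance between centred log2 CPM values. For Clec3b these were Galnt17 (distance 0.0682), Ecscr (0.0726) and Atp1b1 (0.0772). Galnt17 had 54.6, 50.8 and 49.8 CPM in WT-labelled wells and 10.7, 10.2 and 9.09 in the KO-labelled wells, and its log2 fold change of -2.37 is close to the -2.43 of Clec3b. For Dpt they were Ms4a4d (0.118), Halr1 (0.148) and Ifi27l2a (0.194), and for Cd34 they were Gm45104 (0.0564), Ezr (0.0639) and Tubb4a (0.0754). Each of these 9 genes had a log2 fold change within 0.19 of its member's. With 6 libraries in 2 groups, a small distance describes a step of like size and little more.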

How the data were processed

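RNA of 6 wells of immortalized mouse pancreatic fibroblasts was sequenced from polyadenylated RNA. The authors deposited raw counts per gene and log2 CPM values. The submitters' processing notes name STAR 2.7.2b, featureCounts, limma and GRCm38.p6. Strand and multiple-match settings are not given in the sources used here. Each deposited log2 value is a count with 0.5 added, taken as CPM on a log2 scale, apart from 1 offset for each library (-0.0254 to 0.0174). The lowest total of a listed gene over all libraries was 20 counts. Identifiers matched GENCODE M21 for 14515 genes with version and 14822 without, and M21 gave positions and exon lengths for RPKM.

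Groups were taken from the genotype labels. Tests on counts used edgeR 4.0.16 and R 4.3.3 (TMM scaling, filterByExpr, quasi-likelihood F test, Benjamini-Hochberg adjustment), and a gene was called at an adjusted p under 0.05 and at least 1.5-fold. P values measure the spread between wells. Libraries of a group differed by more than sampling noise and were kept as separate replicates. A floor of 3 counts is 0.072 to 0.0957 CPM as scaled. The test was checked on simulated data.

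The members and gene lists were chosen with earlier results of these data known. Named genes are the members, Gli2, Gli3, up to 3 genes in each direction from each list (those called, with groups that did not overlap and no library of the higher group under 20 counts, ranked by size of change), the Ly6 cluster and partner genes, and the 3 genes closest to each of 3 members. Other genes, namely Col1a1, Col1a2, Col3a1, Pdgfra, Acta2, Pparg, Creb5, B2m, Lyz2, Vwf, Esam, Cdh1 and Notch3, were named after their values were seen. So were the neighbouring genes, defining markers with no row, and Pdgfrb, which is drawn in a figure. Alternatives were other scalings, filters and fold limits, DESeq2 1.42.0, limma 3.58.1 on counts and on the deposited log2 values, and leaving out each library in turn.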

Additional observations from a re-analysis of the deposited data

How the results depend on the processing

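Of 69 fold changes of members under 14 alternatives of scaling, filter, tool and library, all 69 kept their direction and their call. The log2 fold change ranged from -3.94 to -3.77 for Dpt, -2.48 to -2.36 for Clec3b, -2.85 to -2.48 for Pi16, -0.89 to -0.79 for Ly6a and 2.86 to 2.94 for Cd34. Pi16 was not tested with at least 10 counts required in every library, and Ly6a was not called with a 2-fold limit. Thy1 was tested in 5 alternatives, with adjusted p from 6.73e-04 to 0.0139 and log2 fold changes from 2.28 to 4.38, the highest without replicate 1 labelled WT. Over all genes, 8391 were called with no fold limit (58.7%) and 1456 with a 2-fold limit, against 2531, and 2501 to 2618 when 1 library was left out. With no fold limit, 14 fibroblast identity, 18 activated fibroblast, 22 family and partner and 1 haematopoietic genes were called; with a 2-fold limit, 4, 7 and 6 of the first 3 lists and 1 of the Ly6 cluster. With at least 10 counts in every library, where fewer genes were tested, 13 wider adventitial, 2 preadipocyte, 1 endothelial and 1 epithelial genes were called. The other 180 of 192 list counts were within 1.5 times. No paired analysis was possible because the labels give no replicate numbers that the groups share, and the numbers used here only name the wells of a group. Scaling moved the median of all genes by at most 0.06 on the log2 scale. Depth limits Thy1 and Pi16, and 64.2% of all genes tested had groups that did not overlap, so a lack of overlap is common here.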

Other observations

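The genes with a row that lie nearest to each member on its chromosome were read after the values of the members had been seen. Tmem158, a membrane protein gene 102 kb past Clec3b, fell by 2.08 on the log2 scale (SE 0.06, adjusted p = 9.59e-12, edgeR's quasi-likelihood test), from 1798, 2058 and 1802 counts to 530, 556 and 437. Exosc7, an exosome subunit gene 14.8 kb before Clec3b, had 0.14 and was not called, so the genes on either side of Clec3b differed in their values. Usp2, a deubiquitinase gene 18.4 kb past Thy1, rose by 1.19 (SE 0.11, adjusted p = 1.61e-06), with 67, 73 and 67 counts in WT-labelled wells and 159, 216 and 163 in the KO-labelled wells. Nectin1, before Thy1, had 0.17 and was not called.

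Mtch1, a mitochondrial carrier gene 1.48 kb past Pi16, fell by 0.68 (SE 0.03, adjusted p = 2.39e-09), while Pi16 itself fell by 2.71 on that scale. BC004004, 3.62 kb before Pi16, had 0.02 and was not called. Plxna2, a semaphorin receptor gene 122 kb before Cd34, fell by 0.69 (SE 0.09, adjusted p = 2.48e-05), the opposite direction to Cd34, and A330023F24Rik, 15.1 kb past it, had -0.15 and was not called. Gm32391, 333 kb before Dpt, was not tested and had 7, 16 and 12 counts in WT-labelled wells and 3, 5 and 0 in the KO-labelled ones. Sft2d2, 350 kb past Dpt, had -0.13, and Zfp41, 619 kb past Ly6a, had 0.27, both under the fold limit.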
